A study of Mus musculus with 6 samples.

Results

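Mitochondria make few of their own proteins, and the rest are imported from the cytosol through protein machines in the mitochondrial membranes. The genes described here encode those import machines and the proteins that fuse, divide, move and shape mitochondria. They were chosen by a rule on gene symbols, set with earlier results of these data known. It took every gene of the count tables named for the outer membrane translocase (Tomm genes) or the inner membrane translocases (Timm genes, with Timmdc1). It also took the sorting and assembly machinery (Samm50 and the metaxins Mtx1, Mtx2 and Mtx3) and the fusion genes Mfn1, Mfn2 and Opa1. Also taken were the fission genes Dnm1l, Fis1 and Mff and the channels Vdac1, Vdac2 and Vdac3. The prohibitins, the Chchd genes and the Miro genes Rhot1 and Rhot2 completed the set. The rule took 51 of 32531 named genes, and 49 of them had enough counts to be tested.

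The RNA came from the dissected thalamus of adult, untreated control mice of the line Cbln1-EGFP/Rpl10a (NIDA030), which all 6 libraries share. In such a line the ribosomal protein Rpl10a carries a green fluorescent tag in cells that use the Cbln1 regulatory sequences, and tagged ribosomes with their RNA are pulled down with antibodies (translating ribosome affinity purification, TRAP). There were 3 immunopurified libraries (IP) and 3 libraries labelled Input. The labels name the molecule as ribosome-bound RNA for both kinds, give no sex and do not say how many animals stood behind a library or whether animals were pooled, so the p-values rest only on how far these libraries spread, which may be technical. Names of the deposited tables point to the parafascicular nucleus of the thalamus, which the labels do not mention.

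Preproteins enter through the TOM complex, whose channel is Tomm40 and whose receptors are Tomm20, Tomm22 and Tomm70a. From there, presequence proteins pass to the TIM23 complex and its motor, small TIM chaperones carry hydrophobic carriers to the TIM22 complex, and barrel-shaped proteins go to the sorting and assembly machinery. Neurons depend on mitochondria far from the cell body, where Miro proteins tie them to motors and where fusion and fission set their size.

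Depth ran from 23929070 assigned counts (Input replicate 1) to 57385828 (IP replicate 1). IP replicate 1 stood apart from the other IP libraries: the ribosomal RNA precursor Rn45s took 14.5% of its counts, against 9.38% and 9.74%. Without it, 36 of the 49 tested genes chosen here were called higher and 2 lower, against 33 and 1 with all libraries. Their median log2 fold change was then 0.70, against -0.07 over all genes. The share of all genes called in that fit is not given here, so the added calls are not read as a result about these genes. The line's own gene Cbln1 was 17.9-fold higher in IP (edgeR quasi-likelihood adjusted p = 9.66e-08). All 10 neuronal markers were higher in IP, with a summed level of 24588 to 29108 CPM (counts scaled to a common library size) against 12626 to 13645 in Input. Of 9 markers of thalamic glutamatergic neurons, 6 were higher, Cbln1 itself being among these, and 1 was lower. All 10 astrocyte markers were lower (836 to 897 CPM in IP, 2416 to 2485 in Input), as were all 10 oligodendrocyte markers (350 to 434 against 3809 to 4417), 5 of 6 GABAergic markers (135 to 143 against 688 to 932), 7 of 10 microglial markers (4.40 to 8.33 against 44.7 to 56.6), 6 of 10 vascular markers (9.11 to 13.8 against 28.0 to 33.8, 1 higher, Pdgfrb) and 4 of 8 choroid plexus and ependymal markers (8.22 to 50.5 against 47.4 to 615). Cldn5 was at 0 in all IP libraries, and no other defining marker of these lists was. These shifts run with IP in every result below and their part in it was not tested. In bulk libraries, fewer cells of a type and less RNA per cell cannot be told apart.

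Most import and dynamics genes were higher in IP. Their summed level was 5153 to 5541 CPM in IP and 3410 to 3523 CPM in Input. Of 49 tested, 33 rose (67.3%), 1 fell and 15 did not pass at an adjusted p of 0.05 (edgeR quasi-likelihood F-test, Benjamini-Hochberg over 16898 genes). Over all genes tested, 23.3% were called higher and 24.3% lower. The median log2 fold change of the 49 members was 0.66, against -0.07 over all genes. In 37 members every IP library lay above every Input library (27.9% of all genes did so), and in 2 every IP library lay below (33.7%). Changes were moderate: 10 members rose at least 2-fold (6.57% of all genes), and Mfn1 was the member lower by at least 2-fold (18.4%). The all-gene median was lower by 0.18 with upper-quartile scaling and by 0.24 with library totals. A change of scaling moves all genes by nearly the same amount, so the member median relative to it was bound to stay near 0.73. That difference was 0.61 with a stricter filter on low counts, 0.84 with DESeq2 and 1.01 without a filter. The last 2 fits were run on 22528 genes, against 16898 in the main fit, so the sets of genes differ too. The counts of members called higher were 30 with upper-quartile scaling and 25 with library totals, with 2 lower in each. With the replicate number as a block, 33 members were higher and 2 lower, Mtx3 being the added one. The shares of all genes called in these fits are not given here, so the changed counts are not read as a result about members. All 34 called members had the same sign in each of the 3 replicate numbers, as had 8011 of the 8030 calls over all genes, and the median over the members was 0.57, 0.63 and 0.74 in numbers 1, 2 and 3.

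**Figure D1:**
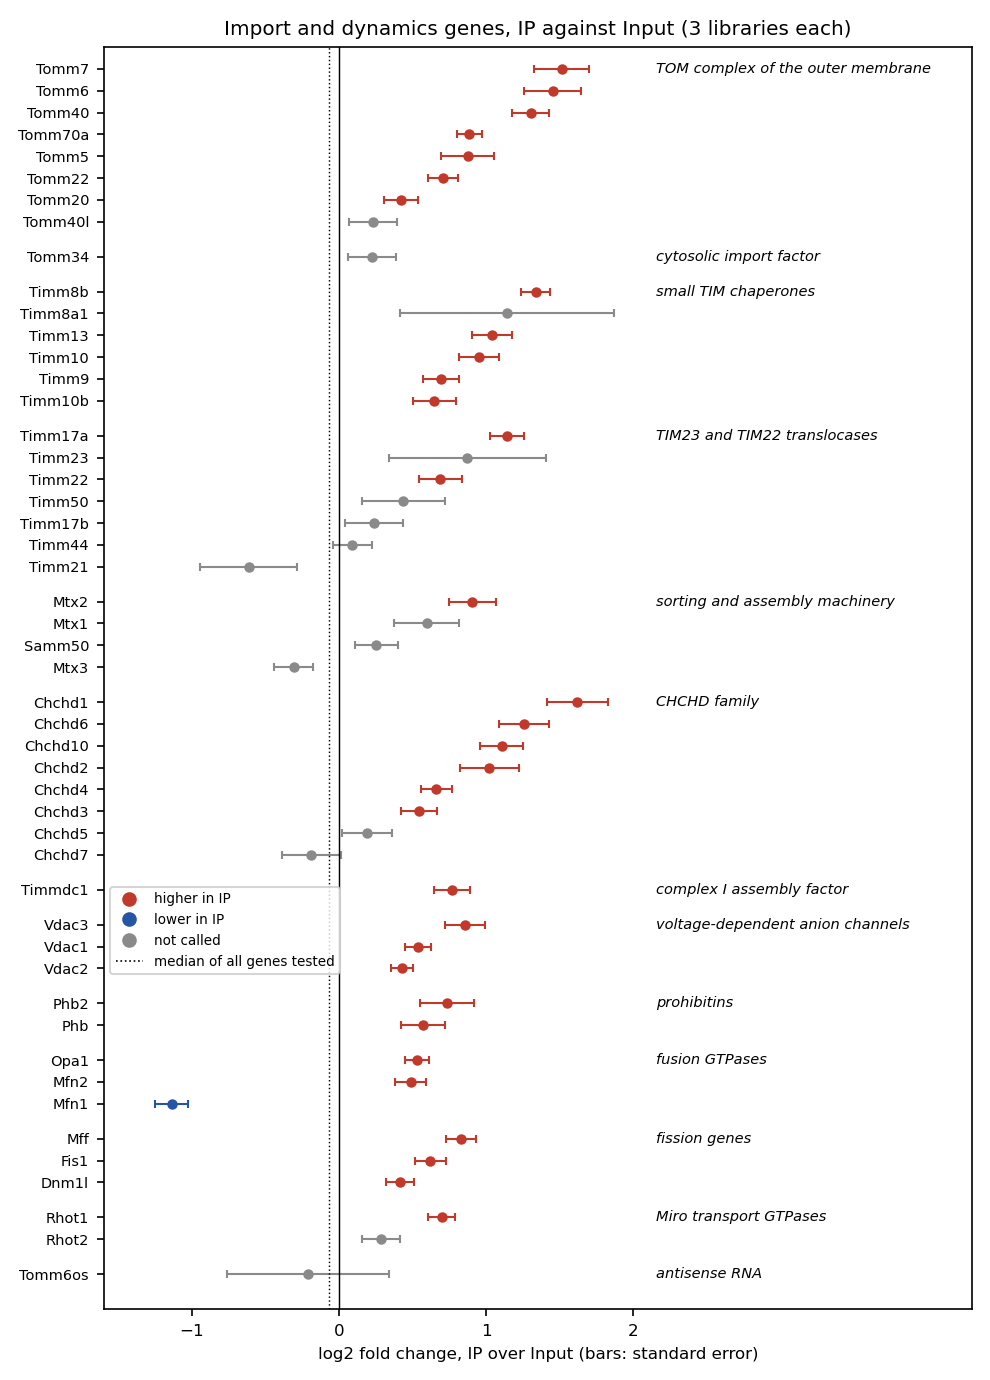
Log2 fold change of IP over Input for the 49 tested genes, grouped by role. Points are estimates from 3 libraries a group and bars their standard error; the dotted line is the median of all genes tested (-0.07), red marks the 33 genes called higher, blue the 1 called lower (Mfn1) and grey the 15 not called.

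Promoters were searched for motifs of 3 factors tied to mitochondrial genes. RefSeq start sites (build GRCm38.p6, the assembly of mm10) gave windows from 250 bases before to 50 after a start for 44 of the 51 members. The ETS-type motif CCGGAAG, the core read by GABP (nuclear respiratory factor 2), a known regulator of mitochondrial genes, stood on either strand in the windows of 20 of those 44 genes (45.5%). It stood in 17.5% of the 11586 tested genes with a window and in 9.93% of all 27025 genes with a window. Of the 20 genes with it, 12 were called higher (Timm8a2 was not tested), and of the 24 without it, 17 were. The YY1-type motif (AAN, then ATGG, then CGGC) was found for 5 members (11.4%, against 2.39% of tested genes and 1.17% of all genes with a window): Mtx1, Mtx3, Samm50, Timm44 and Timm50. Of these 5, 0 were called higher by edgeR, 1 had an unadjusted p under 0.05 with a higher level in IP, and DESeq2 called 1 higher. The NRF1 motif (GCGC, then AT, then GCGC) was found for Opa1 alone (1.07% of all genes with a window, 2.11% of tested genes). Its looser form with NN in place of AT, which contains it, was found for 6 members (13.6%), near the 13.8% of tested genes and above the 6.23% of all windows. A match is a description of the letters and no evidence of binding.

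Windows of 4 members follow, with matches to these motifs in capitals and all other bases in lower case. Mfn1 (chr3:32529232-32529531, plus strand) is the gene that fell, and Timm8b (chr9:50603651-50603950, plus strand) rose most among the small TIM genes. Timm10 (chr2:84826771-84827070, plus strand) has 3 ETS-type matches, of which 2 overlap on opposite strands, and Mtx3 (chr13:92844518-92844817, plus strand) has 2 and a YY1-type match.
Mfn1: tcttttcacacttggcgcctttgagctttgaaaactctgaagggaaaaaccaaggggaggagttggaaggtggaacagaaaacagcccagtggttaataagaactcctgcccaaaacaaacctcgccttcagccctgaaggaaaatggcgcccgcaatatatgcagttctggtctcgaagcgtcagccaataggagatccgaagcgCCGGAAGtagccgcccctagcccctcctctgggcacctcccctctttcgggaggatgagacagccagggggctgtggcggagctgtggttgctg
Timm8b: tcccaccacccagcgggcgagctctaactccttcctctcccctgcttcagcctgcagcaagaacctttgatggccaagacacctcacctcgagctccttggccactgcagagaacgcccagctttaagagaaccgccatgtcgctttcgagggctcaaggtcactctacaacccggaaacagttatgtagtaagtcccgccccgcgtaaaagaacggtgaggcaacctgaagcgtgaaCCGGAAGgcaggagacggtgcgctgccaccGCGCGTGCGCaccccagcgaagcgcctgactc
Timm10: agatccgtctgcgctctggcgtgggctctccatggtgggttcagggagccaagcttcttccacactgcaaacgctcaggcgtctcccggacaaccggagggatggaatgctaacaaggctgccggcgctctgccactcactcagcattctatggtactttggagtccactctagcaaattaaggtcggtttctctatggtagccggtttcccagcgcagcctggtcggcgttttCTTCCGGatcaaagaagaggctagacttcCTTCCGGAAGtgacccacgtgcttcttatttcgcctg
Mtx3: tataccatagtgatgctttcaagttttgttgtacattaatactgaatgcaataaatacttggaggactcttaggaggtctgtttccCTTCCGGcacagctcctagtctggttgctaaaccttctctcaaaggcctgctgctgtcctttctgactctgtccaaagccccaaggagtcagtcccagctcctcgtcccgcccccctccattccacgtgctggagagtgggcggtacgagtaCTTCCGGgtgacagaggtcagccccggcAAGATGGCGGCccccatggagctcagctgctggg
The ETS-type motif is thus found in the window of the member that fell as well as in those of members that rose.

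The TOM complex, the entry gate, was higher in IP in 7 of 8 tested subunits, with a group median of 0.88. Of all genes tested, 23.3% were called higher. The largest rise was in Tomm7, a small subunit that modulates assembly of the complex. Input replicates 1 to 3 had 32.0, 30.1 and 31.0 CPM of it and the IP replicates 117, 67.0 and 80.6 CPM (log2 fold change 1.51, SE 0.19, edgeR adjusted p = 2.18e-04). Another small subunit, Tomm6, had 41.7, 32.8 and 31.2 CPM in Input and 121, 71.3 and 96.5 CPM in IP (1.45, SE 0.19, adjusted p = 3.20e-04). For both genes IP replicate 1 was the highest library and no IP value overlapped Input. The small subunit Tomm5 rose as well, from 9.90 ± 1.27 to 18.2 ± 1.91 CPM (SD, n = 3 each; log2 fold change 0.88, adjusted p = 0.00351).

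The channel gene Tomm40 (chromosome 7, 19701313 to 19715438, mm10) had 22.3, 26.2 and 23.2 CPM in Input and 52.9, 64.4 and 59.7 CPM in IP. The groups lay far apart, and the rise was 2.47-fold (log2 fold change 1.30, SE 0.13, adjusted p = 5.08e-05). Its paralogue Tomm40l did not pass, with 44.0, 43.3 and 39.4 CPM in Input and 41.1, 62.9 and 44.8 CPM in IP (0.23, SE 0.16, adjusted p = 0.270), and the groups overlapped. All 3 receptors rose: Tomm70a, which receives carrier preproteins, rose by 0.88 (SE 0.08), Tomm22, the central receptor, by 0.71 (SE 0.10), and Tomm20, which binds presequences, by 0.42 (SE 0.11, adjusted p = 0.0132). Tomm20 had 265, 266 and 272 CPM in Input and 304, 350 and 422 CPM in IP. It was not called with upper-quartile scaling (adjusted p = 0.103) or library totals (0.274). Tomm34, a cytosolic import factor, did not pass (59.2, 61.0 and 61.1 CPM in Input, 58.1, 90.9 and 62.6 in IP, log2 fold change 0.22, SE 0.16, adjusted p = 0.285), with IP replicate 2 alone far above Input. Tomm20l, a paralogue of Tomm20, was too scarce to test (3, 9 and 6 counts in Input, 0, 0 and 12 in IP).

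**Figure D2:**
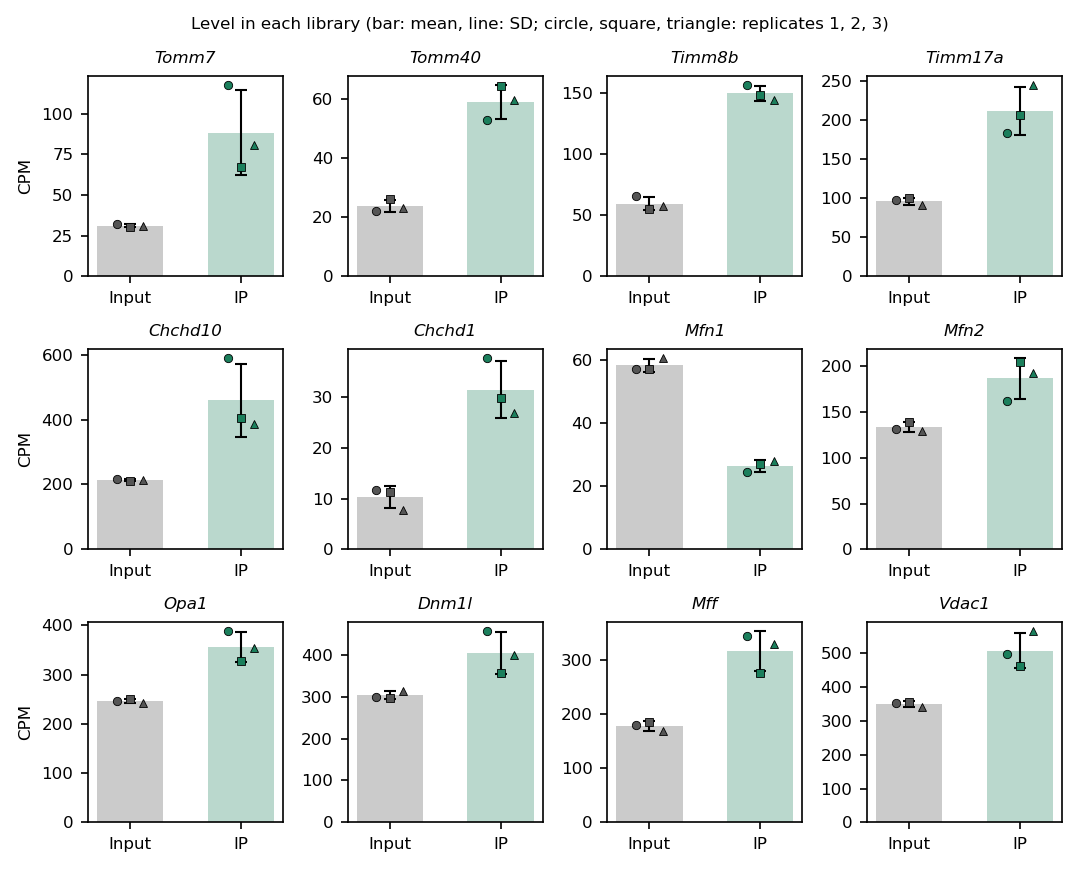
Level in CPM of 12 genes in each of the 3 Input (grey) and 3 IP (green) libraries; bars are means, lines SD, and circle, square and triangle are replicates 1, 2 and 3. In each panel but that of Mfn1 all IP libraries lie above all Input libraries, and for Mfn1 all lie below.

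The small TIM chaperones, which shield hydrophobic proteins between the membranes, were higher in 5 of 6 tested genes, with the group median at 0.99. The share over all genes tested was 23.3%. Timm8b (chromosome 9, 50603910 to 50605320) had 65.5, 55.4 and 57.6 CPM in Input and 157, 149 and 144 CPM in IP (log2 fold change 1.33, SE 0.10, adjusted p = 1.07e-05). The replicates were tight in both groups. Timm13 rose 2.05-fold, from 31.7, 27.1 and 25.7 CPM to 57.9, 64.3 and 51.0 CPM (1.04, SE 0.14, adjusted p = 2.76e-04). Timm9 and Timm10 form the main chaperone complex of this family. Timm9 rose by 0.69 (SE 0.12, adjusted p = 0.00159). Timm10 went from 20.3, 23.5 and 20.5 CPM to 36.4, 44.6 and 43.3 CPM (0.95, SE 0.14, adjusted p = 4.87e-04). Timm10b, which docks that complex at the carrier translocase, went from 13.9, 16.1 and 14.6 CPM to 24.0, 21.6 and 24.4 CPM (0.65, SE 0.15, adjusted p = 0.00584). No IP value of these 4 genes overlapped Input. Timm10b was not called with library totals (adjusted p = 0.0528). Timm8a1, the gene mutated in a deafness and dystonia syndrome, was scarce (0.235, 0.385 and 0.364 CPM in Input, 0.740, 0.610 and 0.847 in IP) and did not pass (1.14, SE 0.73, adjusted p = 0.225), although no IP value overlapped Input. Timm8a2 had 3 counts in all libraries together and was not tested.

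Of the inner membrane translocases 2 of 7 were higher, with a median of 0.44, a share near the 23.3% of all genes called higher. Timm17a, a core subunit of the presequence translocase, had 97.7, 99.9 and 91.3 CPM in Input and 184, 207 and 245 CPM in IP (log2 fold change 1.14, SE 0.11, adjusted p = 5.89e-05). Its paralogue Timm17b, on the X chromosome, had 19.2, 17.0 and 16.2 CPM in Input and 15.1, 23.2 and 23.3 CPM in IP (0.23, SE 0.20, adjusted p = 0.357), and its IP values straddled those of Input. Timm22, the channel of the carrier translocase, rose from 24.2, 20.9 and 27.6 CPM to 35.2, 38.6 and 43.2 CPM (0.69, SE 0.15, adjusted p = 0.00437). The others did not pass: Timm44, which tethers the import motor (0.09, SE 0.13), the receptor Timm50 (0.44, SE 0.28), Timm21, which links TOM and TIM23 (-0.62, SE 0.33), and the channel gene Timm23 (0.87, SE 0.53). Timm21 was called lower without IP replicate 2 (-1.03, adjusted p = 0.0114), and Timm17b was called higher without IP replicate 1 (0.42, adjusted p = 0.0338).

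Counts of Timm23 were very low (1.11 ± 0.227 CPM in Input, 2.03 ± 0.466 in IP). Of its main transcript, 95.6% lies in stretches of at least 100 bases that match an annotated copy elsewhere at 95% identity or more, the longest match being to Gm10273. Reads without a unique alignment were set aside upstream, so this value can miss reads from those stretches. How many it misses was not measured. Such stretches also cover part of Vdac3 (60.2% of the transcript), Phb (51.5%), Chchd2 (50.8%), Vdac2 (45.0%) and Timm8a1 (43.1%). Exons shared with another gene covered 84.2% of Tomm6, 64.3% of Tomm40l, 51.3% of Tomm6os, 31.2% of Rhot2 and 30.1% of Mtx1, and the strand setting of the counting is not given. Part or all of the overlap lies on the same strand for Tomm6 (Gm21981), Tomm6os (Frs3) and Rhot2 (Gm20683, Wdr90). No strand setting separates such reads. Tomm6os, an RNA antisense to Tomm6, is a member only by its name and did not pass (1.52 ± 0.241 CPM in Input, 1.31 ± 0.361 in IP, adjusted p = 0.776). Without these 11 genes, 28 of 38 tested members were higher and 1 was lower (23.3% and 24.3% of all genes were called so).

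In the sorting and assembly machinery, which inserts barrel proteins into the outer membrane, 1 of 4 genes rose, a share near the 23.3% of all genes called higher. The metaxin Mtx2 had 26.6, 25.2 and 25.5 CPM in Input and 56.8, 37.6 and 50.05 CPM in IP (log2 fold change 0.90, SE 0.16, adjusted p = 0.00151). Mtx1 was just short of the threshold (8.77, 8.93 and 9.57 CPM in Input, 11.3, 17.9 and 12.1 in IP, 0.60, SE 0.22, adjusted p = 0.0505). Its groups did not overlap, and it was called higher with DESeq2 (adjusted p = 0.0434), without a filter on low counts (0.0452), and without IP replicate 1 (0.0169) or 3 (0.0418). Mtx3 lay the other way, with 176, 156 and 158 CPM in Input and 154, 135 and 106 CPM in IP (-0.31, SE 0.13, adjusted p = 0.0840). All 3 IP values of Mtx3 lay below Input, and it was called lower with upper-quartile scaling (adjusted p = 0.0169), library totals (0.00584), DESeq2 (0.0414), the replicate block (-0.32, 0.0288) and without IP replicate 1 (0.0126). The barrel gene Samm50 did not pass (40.8 ± 3.76 CPM in Input, 48.6 ± 8.56 in IP, adjusted p = 0.188).

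The Chchd genes, which encode small proteins with paired cysteines, many of them in the intermembrane space, were higher in 6 of 8, with a median of 0.84. For all genes tested that share was 23.3%. Chchd1, a subunit of the mitochondrial ribosome, rose most of all 49 tested members: 11.7, 11.3 and 7.77 CPM in Input and 37.7, 29.8 and 26.8 CPM in IP (log2 fold change 1.62, SE 0.21, adjusted p = 2.54e-04). Chchd10, a gene linked to motor neuron disease, had 218, 212 and 212 CPM in Input and 589, 405 and 386 CPM in IP (1.10, SE 0.15, adjusted p = 3.32e-04). Its relative Chchd2 rose from 115, 79.2 and 69.7 CPM to 222, 151 and 161 CPM (1.02, SE 0.20, adjusted p = 0.00291), and IP replicate 1 was the highest library for both. Chchd6 and Chchd3 belong to the complex that shapes cristae, the folds of the inner membrane. Chchd6 rose from 11.7, 14.9 and 15.1 CPM to 27.5, 36.4 and 36.0 CPM (1.26, SE 0.17, adjusted p = 3.71e-04). Chchd3 rose from 33.9, 33.4 and 36.2 CPM to 54.7, 51.5 and 44.5 CPM (0.54, SE 0.12, adjusted p = 0.00497). Chchd3 was not called with library totals (adjusted p = 0.0669). Chchd4, the oxidoreductase that folds such proteins after import, rose by 0.66 (SE 0.11). Chchd5 (0.19, adjusted p = 0.388) and Chchd7 (-0.19, adjusted p = 0.467) did not pass, and their groups overlapped. Timmdc1, which helps to assemble respiratory complex I, rose from 25.6, 29.2 and 28.9 CPM to 46.4, 44.3 and 52.1 CPM (0.77, SE 0.12, adjusted p = 8.79e-04).

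The outer membrane channels and the prohibitins were all higher (23.3% of all genes were called so). Vdac1, the main metabolite channel of the outer membrane, had 354, 355 and 340 CPM in Input and 497, 460 and 565 CPM in IP (log2 fold change 0.54, SE 0.09, adjusted p = 0.00108). Vdac2 rose from 172, 183 and 184 CPM to 251, 236 and 237 CPM (0.43, SE 0.08, adjusted p = 0.00178). Vdac3 rose from 24.0, 26.9 and 24.9 CPM to 53.0, 40.6 and 43.7 CPM (0.86, SE 0.14, adjusted p = 9.06e-04). The groups of all 3 channels lay apart. Phb and Phb2 form a ring scaffold in the inner membrane. Phb rose from 17.8, 19.2 and 18.9 CPM to 24.2, 27.2 and 31.6 CPM (0.57, SE 0.15, adjusted p = 0.0111). Phb2 rose from 38.7, 38.2 and 39.6 CPM to 53.1, 86.2 and 54.1 CPM (0.73, SE 0.18, adjusted p = 0.00910), and IP replicate 2 stood above the other IP libraries. Phb was not called without Input replicate 1 (adjusted p = 0.0523) or with upper-quartile scaling (0.0528), and with library totals Vdac2, Phb and Phb2 all missed the threshold (0.0885, 0.125 and 0.0696).

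Among the fusion genes, the mitofusins went in opposite directions. Mfn1 (chromosome 3, 32529465 to 32579239) had 57.3, 57.0 and 60.6 CPM in Input and 24.4, 27.2 and 28.1 CPM in IP. It was 2.20-fold lower in IP (log2 fold change -1.14, SE 0.11, adjusted p = 5.40e-05), and no IP library came near Input. Mfn2 (chromosome 4, 147873599 to 147904704), the paralogue mutated in an axonal neuropathy, had 132, 140 and 129 CPM in Input and 162, 205 and 193 CPM in IP (0.48, SE 0.10, adjusted p = 0.00411). Opa1, which fuses the inner membrane, had 247, 251 and 243 CPM in Input and 388, 327 and 353 CPM in IP (0.53, SE 0.08, adjusted p = 8.64e-04). The fall of Mfn1 was called in all alternatives run, with values from -1.37 to -1.07, and 24.8% of all tested genes had a lower log2 fold change. Mfn2 was not called with library totals (adjusted p = 0.126).

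All 3 fission genes rose (23.3% of all genes were called higher). Dnm1l encodes the dynamin-related GTPase that constricts mitochondria, and Mff and Fis1 encode outer membrane proteins that act with it. Mff had 179, 186 and 169 CPM in Input and 344, 274 and 329 CPM in IP (log2 fold change 0.83, SE 0.10, adjusted p = 1.75e-04). Fis1 rose from 94.1, 85.7 and 94.4 CPM to 126, 159 and 137 CPM (0.62, SE 0.11, adjusted p = 0.00136). Dnm1l rose from 299.9, 296 and 313 CPM to 456, 357 and 399 CPM (0.41, SE 0.10, adjusted p = 0.00649). IP and Input did not overlap in any of the 3. Dnm1l was not called with upper-quartile scaling (adjusted p = 0.0784) or library totals (0.131). Of the Miro GTPases, which couple mitochondria to motor proteins, Rhot1 had 77.2, 81.7 and 80.3 CPM in Input and 128, 121 and 140 CPM in IP (0.70, SE 0.09, adjusted p = 2.96e-04). Rhot2 had 67.3, 62.4 and 69.5 CPM in Input and 67.6, 80.2 and 94.8 CPM in IP and did not pass (0.28, SE 0.13, adjusted p = 0.0995), with IP replicate 1 within the Input range. It was called higher without IP replicate 1 (0.40, adjusted p = 0.0100).

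Related genes were also compared as the ratio of their counts within each library, which needs no scaling between libraries. Of 12 pairs, 8 had ratios that did not overlap between IP and Input. The levels of single genes did not overlap for 61.6% of all genes tested, so a count of 8 in 12 is not read as a result about these pairs. For each of these 8 the two-sided exact permutation p was 0.1, the smallest that 3 against 3 libraries allow, and 0.15 after adjustment over the 12 pairs, so no pair could pass. The largest shift was in Mfn1 over Mfn2. Its log2 ratio was -1.20, -1.29 and -1.09 in Input and -2.73, -2.92 and -2.78 in IP, a difference of -1.62. The log2 ratio of Tomm40 over Tomm40l went from -0.82 ± 0.14 to 0.27 ± 0.21 (SD, n = 3 each), so Tomm40l had the larger count in every Input library and Tomm40 in every IP library. Exons shared with another gene cover 64.3% of Tomm40l, and their effect on this ratio was not measured. Nor was it for other genes with overlaps or near-identical copies, Mtx1, Rhot2 and Vdac3 among them. Timm17a over Timm17b shifted by 0.92 and Mtx1 over Mtx3 by 0.89, toward the first gene in IP. Chchd3 over Chchd6 shifted by -0.72, toward Chchd6. Smaller shifts were seen in Rhot1 over Rhot2 (0.42), Vdac1 over Vdac3 (-0.32) and Timm10 over Timm10b (0.30). Vdac1 over Vdac2 (0.11, exact p = 0.4), Phb over Phb2 (-0.13, exact p = 0.7), Chchd2 over Chchd10 (-0.05, exact p = 0.9) and Timm8a1 over Timm8b (-0.20, exact p = 0.6) overlapped between the groups.

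**Figure D3:**
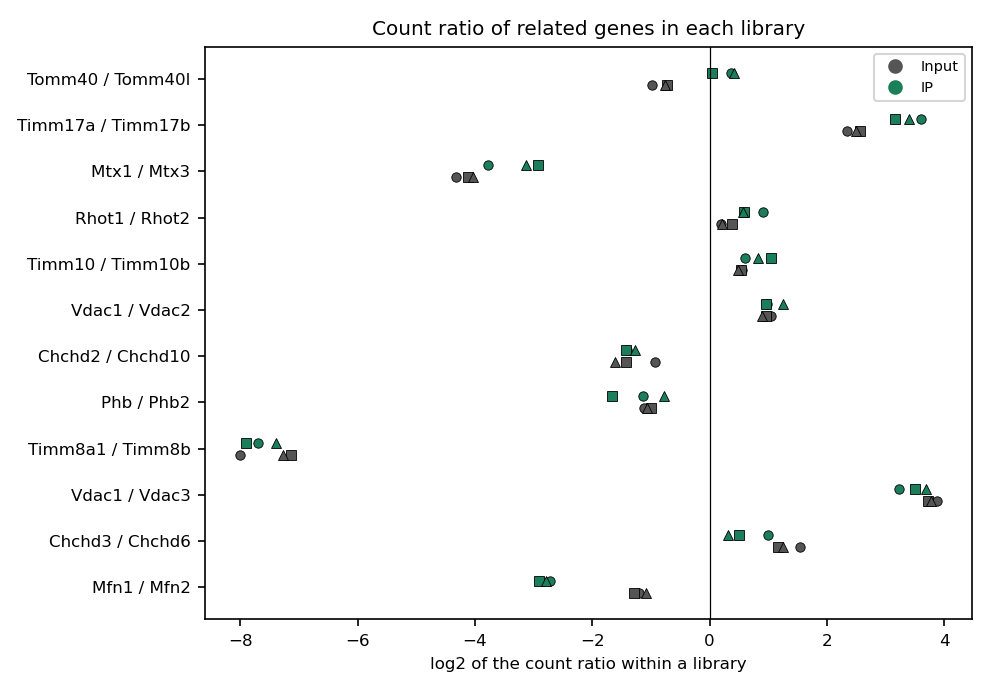
Log2 ratio of the counts of 12 pairs of related genes within each library (Input grey, IP green; circle, square and triangle are replicates 1, 2 and 3). The ratio of Mfn1 to Mfn2 lies near -1.19 in Input and near -2.81 in IP, and that of Tomm40 to Tomm40l lies below 0 in all Input and above 0 in all IP libraries.

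Levels were compared between genes per kilobase of the joined exons of all their transcripts in GENCODE M21. This length exceeds that of the main transcript by unequal amounts. It was 2620 bases against 891 for Vdac1, 1575 against 1488 for Chchd10 and 518 for both in Timm8b. The order below holds for this length only and can change with another. In IP the highest were Chchd10 (292 CPM per kilobase), Timm8b (290) and Vdac1 (194), followed by Tomm6 (85.1), Fis1 (82.0), Tomm7 (78.5), Chchd2 (78.5), Dnm1l (77.7), Tomm22 (77.4) and Tomm20 (73.1). The first 2 did not differ beyond their spread (245 to 374 against 279 to 303 over the IP libraries), nor did neighbours from Tomm6 to Tomm20, whereas all IP values of Vdac1 (176 to 215) lay apart from both neighbours in the order. In Input the highest were Chchd10 (136), Vdac1 (133) and Timm8b (115). Per kilobase, Tomm6os (0.445), Timm8a1 (0.516), Timm23 (1.13) and Timm21 (1.35) had the lowest values among tested members in IP. Places in this order are also uncertain for genes with near-identical copies or overlapping exons. Reads set aside for the copies can lower the values of Timm23 and Timm8a1, and of Chchd2 among the higher ones, by an amount that was not measured. Tomm6 and Tomm6os share exonic bases.

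The change also ran with transcript length. Over the 48 tested protein-coding members, the Spearman correlation of the log2 fold change with the length of the main transcript was -0.52 (Pearson -0.50 with log2 length). With coding length it was -0.46, and with the length outside the coding sequence -0.32. Over 13938 tested protein-coding genes the Spearman values were -0.17, -0.22 and -0.04. Some main transcripts hold few bases outside the coding sequence (3 for Vdac1 and for Dnm1l), so these lengths may fall short of the RNA in the cells. These are correlations across genes that share the same 6 libraries, and genes are not independent replicates. Among the 24 members with the shorter transcripts (up to 1617 bases) 19 were higher, with a median log2 fold change of 0.86, and among the 24 longer (from 1646 bases) 14 were, with a median of 0.42. Timm17a and Tomm70a are long transcripts that rose by 1.14 and 0.88. The spread between replicates was wider in IP, with a median coefficient of variation of 13.5% over the 49 members against 6.67% in Input.

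**Figure D4:**
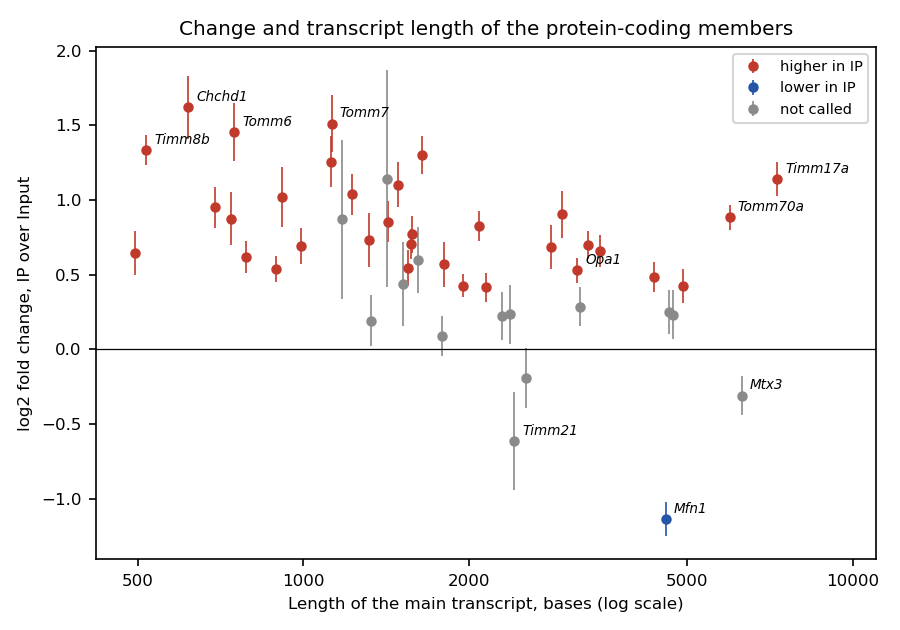
Log2 fold change of IP over Input against the length of the main transcript (log scale) for the 48 tested protein-coding genes, with standard errors; red is higher in IP, blue lower, grey not called. Short transcripts such as Timm8b, Chchd1, Tomm6 and Tomm7 lie at the top, Mfn1 lies lowest, and Timm17a and Tomm70a are long and high.

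Other genes of the same processes, taken from lists of import and maturation, dynamics and cristae genes, gave 29 of 63 tested higher and 1 lower (23.3% and 24.3% of all genes were called so), with a median log2 fold change of 0.42. With library totals 18 were higher and 3 lower, and the share of all genes called in that fit is not given here. With the replicate block 28 were higher, since Pam16, a subunit of the import motor, lost its call (adjusted p = 0.0413 without the block and 0.0688 with it). Among import and maturation genes 13 of 25 rose, led by Dnajc15, a J-protein of the inner membrane, with 27.8, 29.7 and 29.5 CPM in Input and 93.0, 79.3 and 91.4 CPM in IP (log2 fold change 1.60, SE 0.11, adjusted p = 6.91e-06). Romo1, a small inner membrane protein, went from 45.8, 42.0 and 41.8 CPM to 133, 112 and 121 CPM (1.498, SE 0.10, adjusted p = 7.14e-06). Both lay clear of Input in every IP library. The matrix motor chaperone Hspa9 did not pass (136 ± 3.85 CPM in Input, 146 ± 24.7 in IP, adjusted p = 0.510).

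Among 30 other dynamics genes 12 rose and 1 fell (23.3% and 24.3% of all genes were called so). Fundc2, an outer membrane protein, went from 64.4, 62.6 and 64.8 CPM to 194, 162 and 198 CPM (log2 fold change 1.53, SE 0.10, adjusted p = 6.10e-06). Slc25a46, a carrier-like outer membrane protein, went from 94.1, 86.7 and 89.3 CPM to 202, 244 and 273 CPM (1.41, SE 0.12, adjusted p = 2.06e-05). Inf2, a formin that assembles actin at fission sites, fell from 26.5, 26.1 and 23.4 CPM to 3.12, 9.00 and 6.33 CPM, with no overlap (-2.04, SE 0.33, adjusted p = 9.45e-04). Of the adaptors that link Miro proteins to motors, Trak2 rose (0.55, adjusted p = 0.00491) and Trak1 did not pass (0.09, adjusted p = 0.410). Among 8 cristae and related genes 4 rose, led by the iron-sulfur protein Cisd1 with 61.2, 65.9 and 64.0 CPM in Input and 183, 147 and 149.7 CPM in IP (1.33, SE 0.11, adjusted p = 2.00e-05). The next was 2410015M20Rik, a subunit of the cristae complex (31.9, 29.1 and 26.6 CPM to 53.4, 76.7 and 65.4 CPM, 1.16, SE 0.15, adjusted p = 2.68e-04). The central subunit of that complex, Immt, had 113 ± 1.65 CPM in Input and 131 ± 2.61 CPM in IP and was just short of the threshold (0.21, adjusted p = 0.0509).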

How the data were processed

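Each of the 6 files held raw read counts per gene symbol, as deposited. The authors' tools were STAR 2.0.0e and HTSeq with build mm10, per the submitters' processing notes; strand setting, annotation and the version of HTSeq are not given in the sources used here. The lines that name no gene were left out: reads not uniquely aligned made up 43.2 to 49.7% of the table totals in IP and 32.7 to 34.0% in Input, reads outside features 8.44 to 9.39% and 14.8 to 15.9%, ambiguous reads 1.32 to 1.58% and 5.47 to 6.60%. The ribosomal RNA precursor Rn45s took 9.38 to 14.5% of assigned counts in IP and 5.21 to 5.40% in Input. Every pair of replicates differed beyond sampling noise (chi-square per degree of freedom 12.3 to 141).

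Groups and replicate numbers came from the titles. Same-numbered IP and Input libraries share a code beginning with L in their descriptions, which the labels do not explain; the libraries' deviations from the group means correlated at 0.06, 0.04 and 0.01 in numbers 1, 2 and 3, so results are given without the block, and with it where it changed a call. Counts were fitted in R 4.3.3 with edgeR 4.0.16 (filterByExpr with a minimum count of 10, TMM scaling, robust quasi-likelihood F-test, Benjamini-Hochberg over all genes, threshold 0.05). The code was first run on simulated data. Those were drawn with the spread of the Input libraries, narrower than that of IP, so they give no error rate for these data. CPM are TMM-scaled, and standard errors (SE) come from the F statistic. Pair ratios used an added count of 0.5. Copies were sought among GENCODE M21 transcripts. Alternatives were DESeq2 1.42.0, other scalings and filters, a replicate block and leaving out each library.

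The members and lists were chosen with earlier results of these data known. Any member could be named. Full values went to up to 2 called members of largest and up to 2 of smallest log2 fold change in each role (mean of at least 5 CPM), its member of highest level and both genes of each pair, and likewise to the extremes of each list of other genes. Others named, and the alternative without genes with copies or overlaps of 25% or more, were chosen after their values were seen.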

Additional observations from a re-analysis of the deposited data

How the results depend on the processing

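Of the 34 called members, 26 were called in all 12 alternative fits and 0 changed direction in any; the 8 others (Chchd3, Dnm1l, Mfn2, Phb, Phb2, Timm10b, Tomm20 and Vdac2) lost the call in at least 1, and 7 of them only in fits with other scaling. The median of the members was 0.48 with upper-quartile scaling and 0.42 with library totals, and between 0.64 and 0.70 when single libraries were left out. The number of members lower was 2 with upper-quartile scaling, library totals, DESeq2 and the replicate block, and 1 to 2 when single libraries were left out (2 without IP replicate 1, with Mtx3, or 2, with Timm21). In the replicate block 33 members were higher. The block added the call of Mtx3, removed that of Pam16 and changed no other among the members and other pathway genes, and not every library correlated best with its own number. Other pathway genes lower numbered 3 with upper-quartile scaling and with library totals, and 1 to 2 when single libraries were left out (2 without IP replicate 1); 18 were higher with library totals. The cause of these differences was not tested. Shares of all genes called in the alternative fits are not given here, so the counts are not read as results about these genes. Of members not called, Timm44 was at -0.09 with upper-quartile scaling and -0.14 with library totals, and Chchd5 (-0.04) and Tomm34 (-0.01) also changed sign with library totals. Low counts limit what can be said of Timm8a1, Timm23 and Tomm6os.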
